A study of Mus musculus with 29 samples.

Results

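The comparison described here is that of the tibialis anterior (TA) muscle of mice aged 24 months (24m) with that of mice aged 6 months (6m), in the libraries of the first sequencing run. Its members were chosen by the age and the run given in the sample labels, which held for 14 of the 29 libraries of the series, 7 of them from mice at 24m and 7 from mice at 6m. All 14 were male C57BL/6 mice of the aging rodent colony of the National Institute on Aging, with no engineered allele and no treatment. The study asked which genes of muscle move with age in mice whose physical function had been tested, and these mice were a random subset of that larger cohort. Each library was made from poly-A RNA of a whole muscle, and 1 library was made per mouse in this run. The 6m mice were prepared again for the second run, and for the 24m mice the spread between mice and between library preparations cannot be told apart. Mice are called here by their age and by a replicate number from 1 to 7 that only names them.

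The TA is a fast muscle of the lower leg, built mostly of fibres that contract quickly and live on glycogen. With age, motor axons withdraw from some fibres and others take their place. A fibre that has lost its nerve switches genes of its synapse on again along its whole length, among them the gamma subunit of the fetal acetylcholine receptor, and the transcription factors myogenin and Runx1 rise with them. Fibres that are reached by a new axon may change their type, and macrophages gather where fibres are damaged.

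Libraries at 24m held 24250878 to 33499162 counts and those at 6m 19920641 to 28581963. The older mice were sequenced more deeply, with means of 27834500 and 23806500 counts (exact permutation test, two-sided, 3432 assignments, p = 0.021). The myosins of fast fibres were the leading ones in every library. Myh4, the heavy chain of the fastest fibres, had 4489 to 11734 CPM (counts scaled to library size) per kilobase of exon at 24m and 7855 to 11977 at 6m. Myh7, the heavy chain of slow fibres, had at most 1.7 on that scale in any of the 14 libraries. A pair of libraries stood apart from their groups, 24m replicate 4 and 6m replicate 4. In 24m replicate 4, 35.7% of 13103 genes lay at least 2-fold from the 6m mean, against 0.809% to 8.17% in the other 24m mice and 0.374% to 4.46% in the 6m mice. The library of 6m replicate 4 differed from a second library of the same mouse, made for the second run, by an SD of 0.603 in log2 units, and the other 6 pairs had an SD between 0.203 and 0.243.

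How many genes differed between the ages depended on the test, with 11 genes by edgeR, 30 by edgeR without 24m replicate 4, 215 by DESeq2 and 266 by limma-voom with quality weights. Of 13103 genes tested, 11 passed edgeR's quasi-likelihood test at an adjusted p (Benjamini-Hochberg) under 0.05, which is 0.084% of them, of which 8 rose (0.0611%) and 3 fell (0.0229%) at 24m. The higher genes were Erc2, Ak4, Snhg11, Klhdc8a, BC021891, Ostn, Cpn1 and Amy1, and the lower ones included Srebf1 and Ly6g6e. In each of the 11, every mouse at 24m lay beyond every mouse at 6m, and the test had chosen them for that difference. Of the DESeq2 genes, 170 higher (1.11% of 15367 with an adjusted p) and 45 lower (0.293%), this held for 48 and 20. Across all genes tested, 51 had all 24m mice above all 6m mice (0.389%) and 31 had all below (0.237%).

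**Figure D1:**
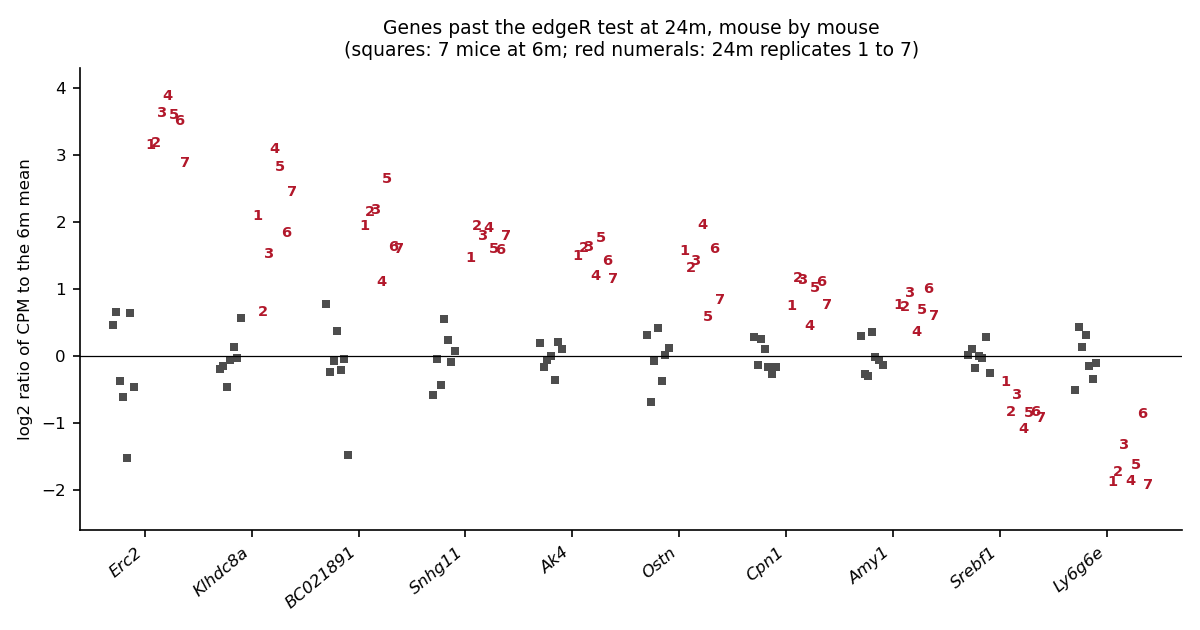
Log2 ratio of CPM to the mean of the 6m mice (vertical axis) for 10 of the 11 genes past the edgeR test (horizontal axis), with 1 square for each of the 7 mice at 6m and the replicate number in red for each of the 7 mice at 24m. In each gene, all red numerals lie on one side of all squares, and the mouse that lies farthest out differs from gene to gene.

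Erc2 encodes a scaffold protein of the presynaptic active zone, and it had the largest log2 fold change of the 11 genes, at 3.39 (standard error, SE, 0.28). Its CPM in 24m replicates 1 to 7 was 2.12, 2.16, 2.95, 3.51, 2.89, 2.71 and 1.75, and at 6m it was between 0.0832 and 0.374. The lowest older mouse was therefore above the highest 6m mouse by a wide margin, and its log2 fold change stayed between 3.24 and 3.55 whichever mouse was left out. The 6m libraries held only 2 to 11 counts of Erc2, so its fold change is less certain than its direction. Ak4, the mitochondrial adenylate kinase 4, had 4.95 to 7.59 CPM over the 7 mice at 24m and 1.75 to 2.59 at 6m.

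Ostn, on chromosome 16 from 27307489 to 27351212 of GRCm38, encodes osteocrin, also called musclin, a peptide that muscle secretes. Its CPM in 24m replicates 1 to 7 was 26.3, 21.8, 23.6, 34.3, 13.2, 26.7 and 15.7, and at 6m it was between 5.48 and 11.8, with a median of 8.89. It rose by a log2 fold change of 1.39 (SE 0.22, adjusted p = 0.0172 by edgeR's quasi-likelihood test). The highest of the 6m mice was replicate 4. Without 24m replicate 4, the highest of the older mice, the log2 fold change was 1.27.

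Klhdc8a, a gene of the kelch repeat family on chromosome 1 from 132298626 to 132307357, had the largest ratio of highest to lowest older mouse among the 8 genes that rose. It had 1.61, 0.598, 1.09, 3.24, 2.67, 1.35 and 2.08 CPM in 24m replicates 1 to 7, against 0.274 to 0.561 at 6m. Replicates 4, 5 and 7 were highest, and replicate 2 lay just above the highest 6m mouse. Snhg11, which hosts small nucleolar RNAs, had the smallest such ratio, with 1.37 to 1.89 CPM at 24m and 0.330 to 0.728 at 6m. BC021891 had 0.517 to 1.49 CPM at 24m and 0.0863 to 0.412 at 6m, and its lowest older mouse was replicate 4.

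Cpn1, on chromosome 19 from 43956307 to 43986556, encodes the catalytic subunit of carboxypeptidase N, an enzyme of the plasma. It had a median of 2.26 CPM at 24m (1.52 to 2.49) and 1.02 at 6m (0.926 to 1.36), a log2 fold change of 0.92 (SE 0.16, adjusted p = 0.0423 by edgeR's test). Amy1 encodes an amylase, and it had a median of 75.5 CPM at 24m (58.3 to 90.6) and 43.8 at 6m (37.1 to 58.1), a log2 fold change of 0.74 (SE 0.13, adjusted p = 0.0472 by edgeR's test). The gap between the groups in Amy1 was narrow, since the lowest older mouse, replicate 4, and the highest 6m mouse, also replicate 4, had 58.3 and 58.1 CPM. Amy1 has near-identical copies, and its count is uncertain to that extent.

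In the 3 genes that fell, no older mouse reached the 6m range. Srebf1, on chromosome 11 from 60199089 to 60222581, encodes SREBP1, the transcription factor that drives the genes of fatty acid synthesis. It had 62.3, 45.9, 54.6, 38.3, 45.5, 45.6 and 42.8 CPM in 24m replicates 1 to 7 and 68.8 to 99.0 at 6m, a log2 fold change of -0.77 (SE 0.12, adjusted p = 0.0165 by edgeR's test). Ly6g6e, of the Ly6 family of small surface proteins, had 0.231 to 0.481 CPM at 24m and 0.618 to 1.19 at 6m.

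The calls differed in how they bore the loss of a mouse. When 1 mouse was left out in turn, Erc2, Ak4, Snhg11 and Ly6g6e passed in all 14 fits. Klhdc8a, Srebf1 and BC021891 passed in 11 of them and Ostn in 10. Amy1 passed in 3 and Cpn1 in 1, so that these calls lay near the threshold. Without 24m replicate 4 the adjusted p by edgeR's test was 0.0127 for both, against 0.0472 for Amy1 and 0.0423 for Cpn1 with all mice. Their log2 fold changes over the 14 fits and the other alternatives stayed between 0.69 and 0.89 for Amy1 and between 0.87 and 1.01 for Cpn1.

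In the second run, the 28m mice were compared with 7 further libraries made from those 6m mice, so the comparisons share their control mice. There the log2 fold change was 3.50 for Erc2, 1.07 for Ak4, 1.47 for Snhg11, 1.80 for Klhdc8a, 2.17 for BC021891 and 1.26 for Ostn. It was 0.66 for Cpn1 and 1.19 for Amy1. For these lower genes it was -0.62 for Srebf1 and -1.42 for Ly6g6e.

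Beyond these genes, the comparison is described by 38 lists of genes for pathways and cell types. The level of a list in a mouse is the median over its tested genes of the log2 CPM above the mean of the 6m mice. Across all genes tested, 54.3% had a fitted log2 fold change above 0, the median was 0.03, and 7.82% were higher and 3.98% lower with an unadjusted p under 0.05. Each count of a list below stands against these shares, and each count by DESeq2 against the 1.11% of genes that it called higher and the 0.293% that it called lower. An adjusted p in a list is edgeR's where no other tool is named. No list lay above all 6m mice in more than 5 of the 7 older mice, and 2 lists reached 5, the acetylcholine receptor subunits and the 3 tested lymphocyte markers. In both, some of the 5 lay barely above the highest 6m mouse, and with the length and GC trend of each library removed 3 of the 7 lay above. The level of 24m replicate 4 lay farthest from the 6m mean among the older mice in 18 of the 38 lists, that of replicate 2 in 9, that of replicate 5 in 7, and those of replicates 1, 3 and 6 in 1, 1 and 2. Replicate 7 was farthest in 0 lists and above all 6m mice in 9.

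**Figure D2:**
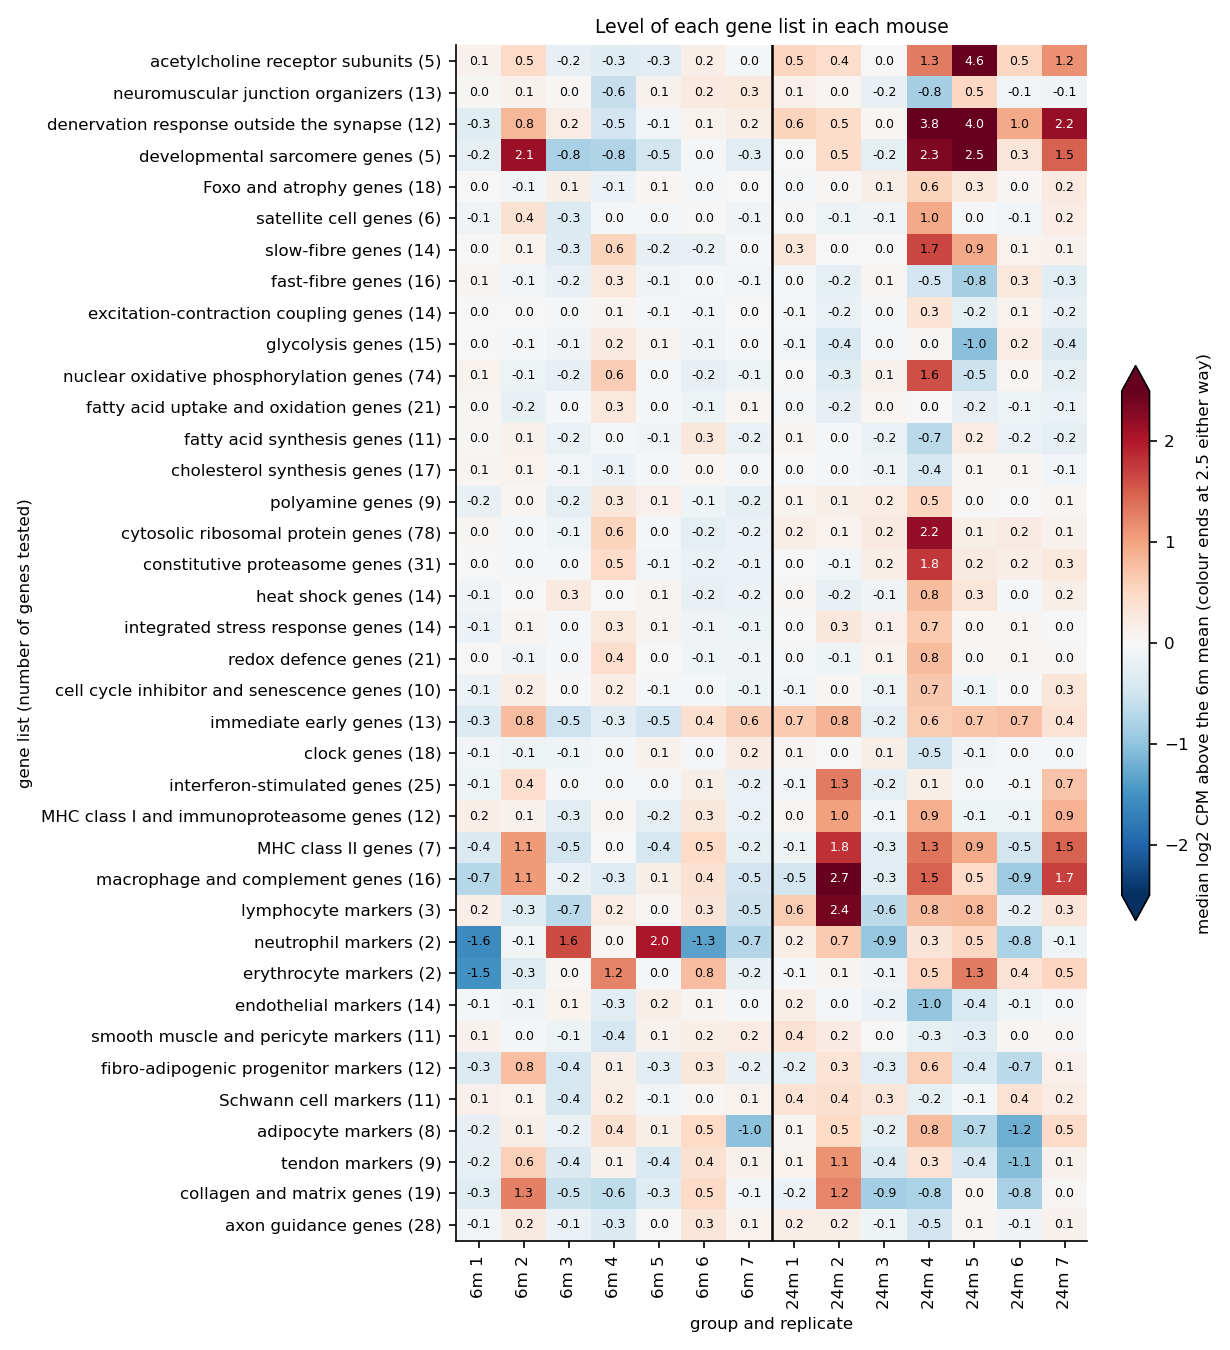
Level of each of 38 gene lists (rows, with the number of genes tested) in each of the 14 mice (columns, 6m to the left of the line and 24m to the right), as the median log2 CPM above the 6m mean, printed in each cell and shown as colour. The denervation lists are high in 24m replicates 4, 5 and 7, the macrophage and MHC lists in replicates 2, 4 and 7, the interferon-stimulated list in replicates 2 and 7, and the ribosomal, proteasome and oxidative phosphorylation lists in replicate 4.

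The subunits of the muscle acetylcholine receptor had levels far above the 6m mice in some older mice and near them in others. All 5 subunits had a log2 fold change above 0, with a median of 2.28, and 4 had an unadjusted p under 0.05, but 0 passed edgeR's test with adjustment. DESeq2 called 2 of the 5, against 1.11% of all genes. The level of the list in 24m replicates 1 to 7 was 0.53, 0.45, -0.01, 1.29, 4.57, 0.51 and 1.15, and at 6m it was between -0.30 and 0.48. Without 24m replicate 5, the median log2 fold change was 0.60, and without replicate 4 it was 2.42. In RNA of a whole muscle, a few fibres with much of a transcript and many fibres with a little of it cannot be told apart, nor can fewer cells of a type and less RNA per cell.

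The promoters of 3 subunits are shown because the adult epsilon subunit had levels over the older mice unlike those of the fetal gamma and the shared alpha subunit, and the myogenic factors that act on E-boxes were measured beside them. The sequences are those of RefSeq on GRCm38.p6, the 250 bases before the annotated start, with the E-box CAGCTG in capitals (it reads the same on both strands). Of the 5 subunits, 4 had an entry, and the promoter of the beta subunit gene, Chrnb1, held no CAGCTG.
Chrng, chr1:87205561-87205810, + strand: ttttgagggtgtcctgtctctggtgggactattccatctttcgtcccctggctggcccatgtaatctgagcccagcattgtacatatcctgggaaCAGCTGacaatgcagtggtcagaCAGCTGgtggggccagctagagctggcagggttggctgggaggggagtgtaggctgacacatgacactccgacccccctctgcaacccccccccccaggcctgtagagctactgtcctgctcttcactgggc
Chrna1, chr2:73580339-73580588, - strand: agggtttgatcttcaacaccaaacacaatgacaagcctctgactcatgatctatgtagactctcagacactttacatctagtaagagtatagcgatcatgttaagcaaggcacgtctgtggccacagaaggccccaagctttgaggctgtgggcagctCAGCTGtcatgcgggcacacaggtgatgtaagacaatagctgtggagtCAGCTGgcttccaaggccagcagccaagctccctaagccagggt
Chrne, chr11:70619195-70619444, - strand: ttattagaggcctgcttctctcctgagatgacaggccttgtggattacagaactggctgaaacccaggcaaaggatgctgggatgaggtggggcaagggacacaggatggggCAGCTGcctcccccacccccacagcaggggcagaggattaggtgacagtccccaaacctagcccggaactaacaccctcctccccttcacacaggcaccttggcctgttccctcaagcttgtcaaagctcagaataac

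In Chrng the CAGCTG matches start 155 and 132 bases before the RefSeq start, and in Chrna1 92 and 44. Chrne has 1, at 138. Only this form of the E-box was searched, and other forms were not counted. The GENCODE span of Chrng begins upstream of its window, which thus lies inside the gene in that annotation, and the span of Chrne takes in the last bases of its window. Of 32851 promoters of that length, 13% held at least 1 such E-box and 1.26% held 2 or more. A match describes the letters of the window and not a bound site.

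Chrng, the gamma subunit that the fetal receptor carries and the adult one lacks, had the largest log2 fold change of the 5. It had 0.547, 1.43, 0.0776, 14.8, 32.3, 1.84 and 7.40 CPM in 24m replicates 1 to 7, and 0 to 0.987 CPM at 6m. Replicates 4, 5 and 7 were far above all 6m mice, replicates 2 and 6 were somewhat above, and replicates 1 and 3 lay within the 6m range. The log2 fold change was 4.97 with an SE of 1.13 (adjusted p = 0.121 by edgeR's test), and with DESeq2 the adjusted p was 0.00138. The 6m mice held between 0 and 29 counts of Chrng, and the highest 6m mouse was replicate 2.

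Chrna1, the alpha subunit that binds acetylcholine, had 24.8, 19.3, 15.1, 163, 334, 23.7 and 47.5 CPM in 24m replicates 1 to 7, and 11.3 to 22.1 at 6m. As in Chrng, replicates 5, 4 and 7 were highest and replicate 3 was lowest. Chrnd, the delta subunit, departed from this order, since it had 69.5 CPM in replicate 5 but 4.10 in replicate 4, and 2.64 to 5.84 in the other 5 older mice, against 1.14 to 3.64 at 6m. Chrnb1, the beta subunit, had 42.1 to 141 CPM at 24m and 34 to 53.1 at 6m, with 6 of the 7 older mice above all 6m mice. Chrne, the epsilon subunit that takes the place of gamma in the adult receptor, had a median of 14.4 CPM at 24m (12.2 to 21.9) and 15.2 at 6m (11.3 to 16.0), a log2 fold change of 0.14 (SE 0.14), and 0.04 without 24m replicate 5. Only Chrng, Chrna1 and Chrnb1 had 5 or more older mice above all 6m mice among the 5 subunits.

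Genes that respond to denervation outside the synapse stood highest in 24m replicates 5, 4 and 7. Of the 12 genes, 11 had a log2 fold change above 0, 9 with an unadjusted p under 0.05 and 0 with an adjusted one, and the median was 2.78, the largest of the 38 lists. DESeq2 called 7 of the 12. The lists were chosen with earlier results of these data known. This list holds Krt18 and Krt8, which the study names among the genes raised most in its oldest mice. Its rank among the lists and its counts are therefore not independent of these data. The level in 24m replicates 1 to 7 was 0.56, 0.46, 0.05, 3.82, 4.04, 0.95 and 2.18, and at 6m it was between -0.48 and 0.83. Replicates 4, 5, 6 and 7 lay above all 6m mice, and replicate 6 lay just above the highest of them, 6m replicate 2. The median was 2.22 without replicate 4 and 2.21 without replicate 5.

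**Figure D3:**
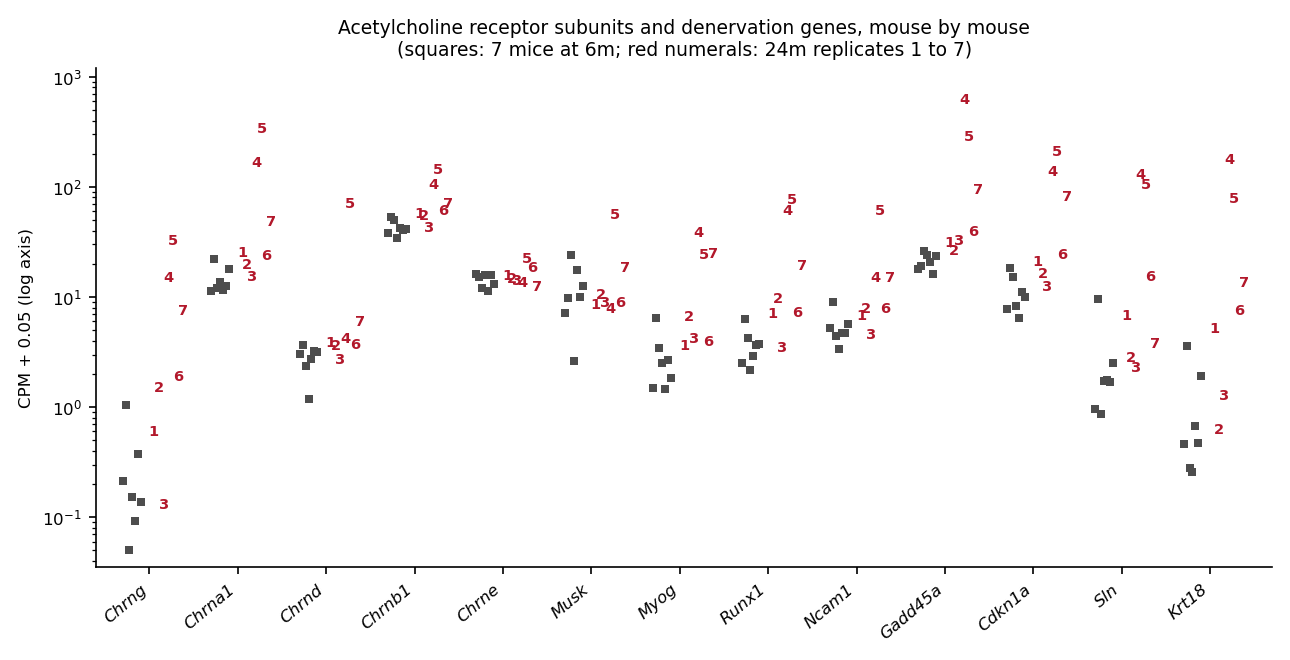
CPM plus 0.05 on a log axis (vertical) for the 5 acetylcholine receptor subunits and 8 genes of denervated or stressed fibres (horizontal), with 1 square for each of the 7 mice at 6m and the replicate number in red for each of the 7 mice at 24m. Numerals 4, 5 and 7 stand above the squares in Chrng, Chrna1, Myog, Runx1, Gadd45a and Cdkn1a, numeral 3 lies among the squares in Chrng and Chrna1, and in Chrnd and Musk numeral 5 stands far above the rest.

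Runx1, a transcription factor that preserves denervated fibres, had 6.94, 9.43, 3.38, 60.5, 76.5, 7.12 and 19.1 CPM in 24m replicates 1 to 7, and 2.13 to 6.19 at 6m, so that only replicate 3 lay within the 6m range. Myog, which encodes myogenin, had 37.8, 23.9 and 24.4 CPM in 24m replicates 4, 5 and 7 and 3.52 to 6.54 in the other 4, against 1.41 to 6.43 at 6m. The log2 fold changes were 2.86 for Runx1 (SE 0.65, adjusted p = 0.121 by edgeR's test) and 2.41 for Myog (SE 0.59, adjusted p = 0.161).

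Gadd45a, a stress gene that muscle induces after loss of its nerve, had 618 CPM in replicate 4, 283 in replicate 5 and 93.0 in replicate 7. The other 4 older mice had 26.2 to 38.6 CPM and the 6m mice 16.3 to 26.3. Cdkn1a, the cell cycle inhibitor p21, followed that pattern, with 137, 207 and 80.9 CPM in replicates 4, 5 and 7, 12.2 to 24.1 in the others and 6.41 to 18.2 at 6m. Ankrd1, a stretch-sensitive protein of the sarcomere, had 635 and 535 CPM in replicates 4 and 5 and 36.6 to 67.4 in the others, against 17.3 to 40.6 at 6m.

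Krt18 and Krt8 encode keratins that pair with each other, and Krt18 had the largest log2 fold change of all genes tested, 5.20 (SE 1.22, adjusted p = 0.138 by edgeR's test). Krt18 had 175 CPM in replicate 4, 77.0 in replicate 5 and 0.565 to 13.4 in the other older mice, against 0.208 to 3.54 at 6m. Rrad, which restrains calcium channels, had 226 CPM in replicate 4, 108 in replicate 7, 60.4 in replicate 5 and 9.24 to 21.8 in the others, against 1.61 to 9.63 at 6m, and 6 of 7 older mice lay above all 6m mice.

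Sln encodes sarcolipin, a small protein that uncouples the calcium pump of the sarcoplasmic reticulum. Its CPM in 24m replicates 1 to 7 was 6.71, 2.72, 2.21, 129, 103, 15 and 3.70, and at 6m it was between 0.823 and 9.50. Replicates 4, 5 and 6 lay above all 6m mice, the first pair by far, and replicate 7, which was high in Chrng and Runx1, lay within the 6m range in Sln. Ncam1, an adhesion molecule that spreads over denervated fibres, had 60.6 CPM in replicate 5, 14.9 and 14.7 in replicates 4 and 7, and 4.46 to 7.73 in the others, against 3.33 to 9.02 at 6m.

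The proteins that organize the synapse had a median near that of all genes. Of the 13 genes, 5 had a log2 fold change above 0 and 8 below, and 1 had an unadjusted p under 0.05. The median was -0.04, with 0.10 without 24m replicate 4, -0.19 without replicate 5 and -0.13 against the second-run 6m libraries. Musk, the kinase that clusters the receptor, had 55 CPM in replicate 5 and 18.4 in replicate 7, and 7.75 to 10.4 in the other older mice, against 2.55 to 24.1 at 6m. Its log2 fold change was 0.50 (SE 0.51), and it was -0.19 without replicate 5. The gene with the smallest p of the list, Etv4, a transcription factor of synaptic nuclei, had a log2 fold change of 0.58 (SE 0.21, adjusted p = 0.350 by edgeR's test), and 0.38 without replicate 5.

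Sarcomere genes of developing muscle stood high in 3 older mice and in 1 mouse at 6m. Of the 5 genes, 4 had a log2 fold change above 0, 3 with an unadjusted p under 0.05, and the median was 1.85, or 0.81 without 24m replicate 4. The level was 2.33, 2.54 and 1.47 in 24m replicates 4, 5 and 7 and -0.24 to 0.46 in the others, and 6m replicate 2 had 2.13 against -0.82 to -0.03 in the other 6m mice. Myh3, the embryonic myosin heavy chain, had 99.6 CPM in 24m replicate 7, 77.5 in replicate 5 and 29.8 in replicate 4. The 6m mouse with the high level had 26.9 CPM of Myh3, and the other 6m mice had 2.76 to 5.74. Actc1, the cardiac actin, had a log2 fold change of -0.69 (SE 0.60), between -0.97 and 0.10 with 1 mouse left out, and its highest mouse was 6m replicate 2, with 338 CPM against 20.5 to 124 at 24m.

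Among genes of atrophy, many of them under Foxo control, the median was small. Of the 18 genes, 12 had a log2 fold change above 0, 5 with an unadjusted p under 0.05, and the median was 0.19, or 0.06 without 24m replicate 4. Gdf5, a growth factor of the BMP family that limits atrophy after denervation, stood out in size, with a log2 fold change of 3.37 (SE 0.70, adjusted p = 0.0961 by edgeR's test). It had 1.16, 0.166, 1.55, 12.8, 8.58, 2.97 and 3.80 CPM in 24m replicates 1 to 7 and 0.204 to 0.659 at 6m, so that 6 older mice lay above all 6m mice and replicate 2 lay below them all. Of 6 tested satellite cell genes, 3 were above 0 and 3 below, with a median of 0.04 (-0.10 without 24m replicate 4), and Pax7, the factor that marks satellite cells, had a log2 fold change of -0.38 (SE 0.41). That value was -0.17 without replicate 4, which had 0.0689 CPM of Pax7 against 1.09 to 2.13 in the other older mice, and -0.77 against the second-run libraries of the 6m mice.

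Genes of slow fibres leaned higher at 24m, unequally over the mice. Of the 14 genes, 13 had a log2 fold change above 0, 6 with an unadjusted p under 0.05 and 0 with an adjusted one, and the median was 0.62, or 0.45 without 24m replicate 4. The level was 1.68 in replicate 4, 0.94 in replicate 5 and 0.31 in replicate 1, and at most 0.10 in the others, while 6m replicate 4 had 0.56 and the other 6m mice -0.33 to 0.09. With the length and GC trend removed, 24m replicate 4 was at 0.84, below replicate 5 at 0.94, and 6m replicate 4 was at 0.27. Myl2, the slow and cardiac regulatory light chain, had 1.12 to 8.68 CPM at 24m, 1.16 to 2.44 at 6m, with 5 older mice above all 6m mice and replicate 7 below them all. Tnnt1, the slow troponin T, had 61.4 CPM in replicate 4 and 3.89 to 13.5 in the others, against 2.84 to 9.98 at 6m. Its log2 fold change was 1.51, and 0.51 without that mouse.

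Myh7 itself had a log2 fold change of 0.54 (SE 0.43), and -0.02 without replicate 1. Of the 16 fast-fibre genes, 6 were above 0 and 10 below, with a median of -0.15, and 1 had an unadjusted p under 0.05. That gene was Myh4, with 54638, 43258, 52975, 27008, 30962, 70592 and 42425 CPM in 24m replicates 1 to 7 and a 6m range of 47257 to 72054. Replicates 4, 5, 7 and 2 lay below all 6m mice, and the log2 fold change was -0.47 (SE 0.20, adjusted p = 0.404 by edgeR's test). Pvalb, the calcium buffer parvalbumin of fast fibres, had a log2 fold change of 0.30 (SE 0.34) and one of -0.17 without replicate 4.

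Of 14 genes of excitation-contraction coupling, 6 were above 0 and 8 below, with a median of -0.04, which was -0.12 without 24m replicate 4 and turned to 0.004 without replicate 5 and 0.007 without replicate 2. In Cacng1, the gamma subunit of the muscle calcium channel, all 7 older mice lay above all 6m mice, with 344, 318, 327, 982, 547, 332 and 417 CPM in 24m replicates 1 to 7 and 242 to 312 at 6m. Replicates 4, 5 and 7 were highest, and the log2 fold change was 0.84 (SE 0.23, adjusted p = 0.213 by edgeR's test), and 0.55 without replicate 4. Jph2, which holds the sarcoplasmic reticulum at the transverse tubule, had 408 and 412 CPM in replicates 4 and 5 and 888 to 1227 in the others, against 1166 to 1229 at 6m. Its 6m mice were close together, and 6 of the 7 older mice lay below them.

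The lists of fuel use had small medians, and Srebf1 was their only member past edgeR's adjusted test, while DESeq2 also called Scd2. Of the 15 glycolysis genes, 13 had a log2 fold change below 0, but 0 had an unadjusted p under 0.05, and the median was -0.21, or -0.11 without 24m replicate 5. The level was -1.04 in 24m replicate 5, -0.38 and -0.37 in replicates 2 and 7, and between -0.06 and 0.20 in the others, against -0.09 to 0.24 at 6m. Pygm, the glycogen phosphorylase of muscle, had 2351 CPM in replicate 4, 4371 in replicate 5 and 7207 to 10384 in the others, against 8614 to 10398 at 6m. The level of the list in replicate 4 was 0.03, and -0.65 with the length and GC trend removed.

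Beside Srebf1, 8 of the 11 genes of fatty acid synthesis were below 0, and 2 of them, Srebf1 and Scd2, had an unadjusted p under 0.05. The median was -0.10, with -0.02 without 24m replicate 4, -0.18 without replicate 5 and -0.26 against the second-run 6m libraries. Scd2, a stearoyl-CoA desaturase, had 14.1 to 25.6 CPM at 24m and 21.2 to 49.9 at 6m, with 5 older mice below all 6m mice and a log2 fold change of -0.70 (SE 0.19, adjusted p = 0.201 by edgeR's test). Fasn, the fatty acid synthase, had 6.89 to 23.2 CPM at 24m and 10.8 to 38.1 at 6m, so that the groups overlapped widely. Of the 17 genes of cholesterol synthesis, 11 were below 0, with a median of -0.08 (0.01 without 24m replicate 4), and of the 21 of fatty acid uptake and oxidation 13 were below 0, with a median of -0.10 (-0.04 without replicate 5).

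Among 9 tested polyamine genes the median was 0.04, with 5 above 0 and 4 below, and it was 0.08 without 24m replicate 5, 0.07 without replicate 7 and 0.13 against the second-run 6m libraries. Smox, the spermine oxidase that falls in atrophying muscle, had 282, 179, 266, 252, 50.3, 346 and 252 CPM in 24m replicates 1 to 7 and 302 to 765 at 6m. Of the 7 older mice, 6 lay below all 6m mice, and the log2 fold change was -1.07 (SE 0.32, adjusted p = 0.254 by edgeR's test). Car3, the carbonic anhydrase of muscle, lay above all 6m mice in 7 of 7 older mice, with 3883 to 7483 CPM against 1457 to 3614, and its highest older mouse was replicate 5.

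The genes of cytosolic ribosomal proteins, of the proteasome and of oxidative phosphorylation leaned higher in the fit, and most of their size was lost without 1 mouse. All 78 tested ribosomal protein genes had a log2 fold change above 0, 34 with an unadjusted p under 0.05 and 0 with an adjusted one by edgeR, and the median was 0.68. DESeq2 called 1 of the 78. Without 24m replicate 4 the median was 0.15. The level was 2.2 in that mouse and 0.08 to 0.23 in the other 6 older mice, against 0.55 in 6m replicate 4 and -0.22 to 0.03 in the other 6m mice. All 6 of the other older mice were thus above all 6m mice but replicate 4, by a small margin.

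The 31 proteasome genes were all above 0 with a median of 0.49, or 0.12 without 24m replicate 4, and 10 had an unadjusted p under 0.05. Of 74 nuclear genes of oxidative phosphorylation, 59 were above 0, but 0 of these had an unadjusted p under 0.05. Their median was 0.26 with all mice and -0.17 without replicate 4. Psmb4, a proteasome subunit, had 1285 CPM in replicate 4 and 132 to 173 in the others, against 119 to 216 at 6m. Rpl3, a protein of the large subunit, had 314 CPM in replicate 4 and 119 in replicate 5, and 5 of the 7 older mice were above all 6m mice (28.0 to 44.9 CPM), with a log2 fold change of 1.5, and 0.87 without replicate 4. Ribosomal protein genes have many near-identical copies in the genome, and their counts are uncertain to that extent.

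**Figure D4:**
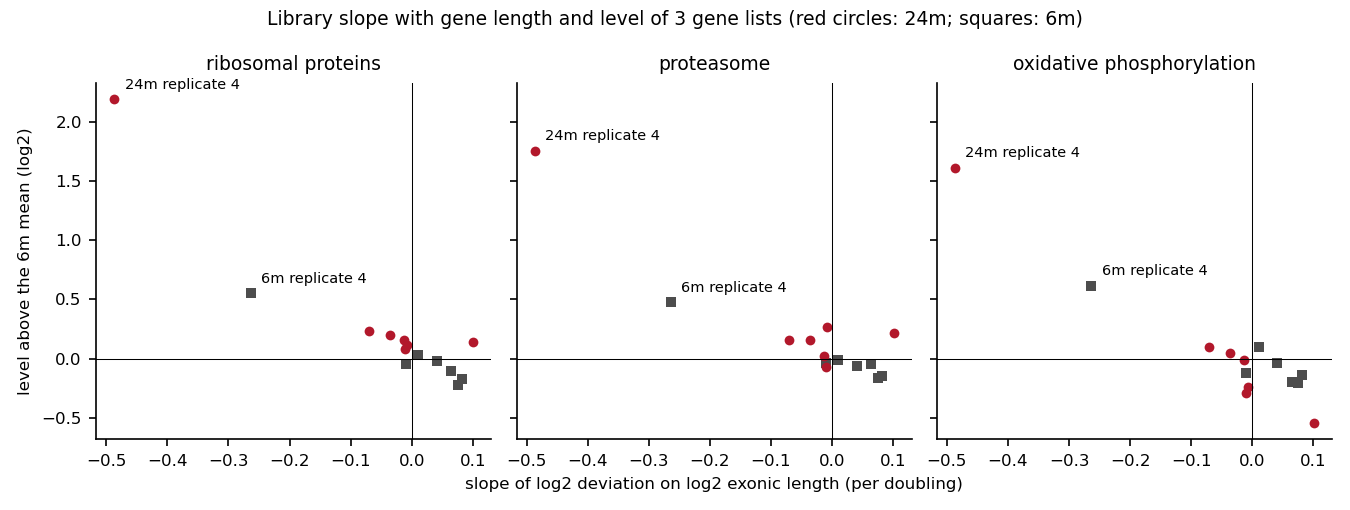
Level of the ribosomal protein, proteasome and oxidative phosphorylation lists (vertical axes, log2 above the 6m mean) against the slope of each library's log2 deviation on log2 exonic length (horizontal axis, per doubling), with red circles for the 7 libraries at 24m and squares for the 7 at 6m. The libraries of 24m replicate 4 and 6m replicate 4 lie at the steepest slopes, -0.487 and -0.263, and have the highest level of each list.

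The genes of these lists are short, with a median exonic length of 1776 bases for the ribosomal protein genes, 2808 for the proteasome and 1737 for oxidative phosphorylation, against 4492 over all genes. In each library, the log2 deviation of a gene from the 6m mean was set against the log2 of its exonic length, known for 99.0% of the genes tested. The slope was -0.487 per doubling of length in 24m replicate 4 and -0.263 in 6m replicate 4, and between -0.0700 and 0.101 in the other 12 libraries. Short genes were thus relatively high in both libraries that stood apart, of both ages. At 24m the slope averaged -0.0746 ± 0.189, and at 6m 0 ± 0.121 (SD, n = 7 mice per age). That difference was within the spread between mice (exact permutation test, two-sided, 3432 assignments, p = 0.461). Against the second-run libraries of the 6m mice the difference was -0.138 (exact permutation test, p = 0.00641). In that comparison the ages come from different runs, so age and run cannot be told apart. Without 24m replicate 4, within the first run, the difference was -0.00594.

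With the trend on length and on GC content taken out of every library, the median of the ribosomal list was 0.40, that of the proteasome 0.30 and that of oxidative phosphorylation -0.06. After that step the median was 2.59 for the denervation list and 2.27 for the receptor subunits. The part of RNA quality or library preparation in the values of 24m replicate 4 was not tested. With the trend removed, the level of that mouse was 1.24 for ribosomal genes, 1.06 for proteasome genes and 0.52 for oxidative phosphorylation, still above every other mouse in each. It went from 1.47 to 0.49 for macrophage genes, from 1.68 to 0.84 for slow-fibre genes, from 1.29 to 0.74 for the receptor subunits, from 0.95 to 0.33 for satellite cell genes, from 0.78 to -0.23 for lymphocyte markers and from 0.03 to -0.65 for glycolysis genes. For the denervation list it went from 3.82 to 3.79.

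Markers of macrophages and genes of antigen presentation stood highest in 24m replicates 2, 4 and 7. All 16 macrophage and complement genes had a log2 fold change above 0, 8 with an unadjusted p under 0.05 and 0 with an adjusted one, and the median was 1.13, or 0.54 without 24m replicate 2. DESeq2 called 1. The level in 24m replicates 1 to 7 was -0.46, 2.67, -0.29, 1.47, 0.47, -0.89 and 1.72, and at 6m it was between -0.71 and 1.06, the highest being replicate 2. Replicates 2, 7 and 4 lay above all 6m mice, and replicate 6 lay below them all. With the length and GC trend removed, replicate 4 was at 0.49, within the 6m range and below replicate 5 at 0.57. The summed CPM of the list was 81.5 to 860 at 24m, against 83.3 to 299 at 6m.

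Lgals3, which encodes galectin-3 of macrophages and damaged fibres, had 7.01, 46.5, 5.70, 44.1, 11.9, 4.11 and 28.5 CPM in 24m replicates 1 to 7, and 2.35 to 10.1 at 6m. Ctss, the cathepsin that trims antigen in these cells, had 94.5 CPM in replicate 2, 50.6 in replicate 7, 34.9 in replicate 4 and 2.97 to 12 in the others, against 3.50 to 17.1 at 6m. Spp1, which encodes osteopontin, a secreted protein of macrophages in injured muscle, had 36.4 CPM in replicate 2, 19.2 in replicate 5, 15.4 in replicate 4 and 8.98 in replicate 7. Its other 3 older mice had 1.33 to 2.48 CPM and the 6m mice 0.510 to 1.80, so 6 of 7 older mice were above all 6m mice, and the log2 fold change was 3.38 (SE 0.68, adjusted p = 0.0811 by edgeR's test).

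The 7 genes of MHC class II were all above 0, 4 with an unadjusted p under 0.05, with a median of 0.86. Their level was highest in 24m replicates 2, 7 and 4 (1.83, 1.47 and 1.33) and 1.07 in 6m replicate 2. The 12 genes of MHC class I and the immunoproteasome were all above 0 with a median of 0.42 (0.27 without 24m replicate 2), and their level was 1.02, 0.89 and 0.86 in replicates 2, 4 and 7 and between -0.13 and 0.04 in the other 4 older mice. Of 25 interferon-stimulated genes, 23 were above 0, 5 with an unadjusted p under 0.05, and the median was 0.36. Interferon-stimulated genes stood above all 6m mice in replicates 2 and 7 only, at 1.30 and 0.72, and without replicate 2 their median was 0.07.

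Few markers of other blood cells could be followed. Of the 12 lymphocyte markers, 3 passed the filter on low counts, and the markers of T cells, among them Cd3e, Cd8a and Cd4, did not. Igj, the joining chain of antibodies, had 0.825 to 13.4 CPM at 24m and 0.0457 to 3.17 at 6m, and a log2 fold change of 2.35 (SE 0.80, adjusted p = 0.308 by edgeR's test), between 1.52 and 3.53 with 1 mouse left out. Of the neutrophil markers, 2 of 5 passed the filter and their levels spread more widely at 6m (-1.59 to 2.05) than at 24m (-0.94 to 0.66). For red cells, Alas2, of haem synthesis, had 13 to 40.6 CPM at 24m and 4.66 to 30.6 at 6m, and Hba-a1 and Hba-a2 were at 0 in all 14 libraries.

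Most genes of the extracellular matrix had a log2 fold change below 0, with wide spread at both ages. Of the 19 collagen and matrix genes, 3 were above 0 and 16 below, with a median of -0.20, and 1 had an unadjusted p under 0.05. That gene, Col15a1, a collagen of basement membranes, had 18.2 to 35.7 CPM at 24m and 25.7 to 69.3 at 6m, a log2 fold change of -0.52 (SE 0.22, adjusted p = 0.400 by edgeR's test), between -0.60 and -0.32 with 1 mouse left out. The level of the list was 1.23 in 24m replicate 2 and 1.25 in 6m replicate 2, and -0.85 to 0.05 in the other older mice. Without 24m replicate 2 the median was -0.54. The 12 markers of fibro-adipogenic progenitors had a median of -0.06, with 5 above 0. That median was -0.18 without 24m replicate 4, 0.01 without replicate 5, and 0.07 against the second-run libraries of the 6m mice, so that its sign turned.

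Of the 14 endothelial markers, 3 were above 0 and 11 below, with a median of -0.12, and 2 had an unadjusted p under 0.05. The median was -0.20 without 24m replicate 2 and -0.26 against the second-run libraries of the 6m mice. Tie1, a receptor of endothelial cells, had 17.9 CPM in 24m replicate 4, 35.2 in replicate 5 and 45.4 to 55.6 in the others, against 53.3 to 65.3 at 6m, so that 6 older mice lay below all 6m mice. Its log2 fold change was -0.42 (SE 0.18, adjusted p = 0.405 by edgeR's test), and -0.29 without replicate 4. Smooth muscle and pericyte markers had a median of -0.01, adipocyte markers 0.05, tendon markers 0.08 and axon guidance genes -0.03. The signs of these 4 medians turned when a mouse was left out, to 0.03, -0.09 and 0.04 without 24m replicate 4 for smooth muscle, adipocyte and axon guidance genes, and to -0.16 without replicate 2 for tendon.

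Schwann cell markers, which belong to the nerve within the muscle, stood above all 6m mice in 4 of the 7 older mice. Of the 11 genes, 8 were above 0, 3 with an unadjusted p under 0.05, and the median was 0.34, or 0.39 without 24m replicate 4. The level was 0.30 to 0.41 in replicates 1, 2, 3 and 6, 0.18 in replicate 7, and -0.24 and -0.05 in replicates 4 and 5, against -0.41 to 0.18 at 6m. Replicates 4 and 5, the highest in the denervation list, were the lowest in this one. Mbp, a protein of myelin, had 12.6 to 20.8 CPM at 24m and 12.2 to 17.3 at 6m, and 5 of the 7 older mice lay above all 6m mice. Its log2 change was 0.34 (SE 0.13, adjusted p = 0.368 by edgeR's test).

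Among the stress and signalling lists, that of the immediate early genes had the largest median. Of 13 immediate early genes, 10 were above 0, 4 with an unadjusted p under 0.05, with a median of 0.47 (0.27 without 24m replicate 5, and 0.31 against the second-run 6m libraries), and the level was 0.37 to 0.84 in 6 of the older mice and -0.23 in replicate 3. In this list the 6m mice ranged from -0.53 to 0.78, so that 1 older mouse lay above them all. Junb, a subunit of AP-1, had 20.3 to 68.0 CPM at 24m and 12.1 to 34.8 at 6m, with 5 older mice above all 6m mice and a log2 fold change of 0.97 (SE 0.28, adjusted p = 0.236 by edgeR's test). Myc had 5.20 to 9.71 CPM at 24m and 2.27 to 5.70 at 6m, a log2 fold change of 0.89 (SE 0.22, adjusted p = 0.168).

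The heat shock genes had a median of 0.19, or 0.05 without 24m replicate 4, the integrated stress response 0.16, redox defence 0.33, or 0.07 without 24m replicate 4, and cell cycle inhibitors and senescence genes 0.07, or 0.13 without 24m replicate 5, 0.04 without replicate 7 and 0.21 against the second-run 6m libraries. Hspb7, a small heat shock protein of muscle, had 1667 CPM in replicate 5, 734 in replicate 4 and 206 to 401 in the others, against 192 to 308 at 6m. The 18 clock genes had a median of -0.10 (-0.04 without 24m replicate 4), and Nr1d1 and Dbp, which swing with the hour of the day, had log2 fold changes of -0.45 (SE 0.22) and 0.05 (SE 0.29).

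How evenly the older mice shared the calls was examined in the longer list that DESeq2 gave, 170 genes higher and 45 lower at 24m. Of the 170, 48 had all 7 older mice above all 6m mice, 134 had 5 or more, and 8 had 3 or fewer. Of the 45 lower genes, 20 had all 7 older mice below all 6m mice and 39 had 5 or more. These counts describe genes chosen for their difference. Of the 136 higher genes that edgeR also tested, 24m replicate 5 had the highest value of the older mice in 52, replicate 4 in 50, replicate 2 in 19, and replicates 1, 3, 6 and 7 in 0, 3, 5 and 7. Over all genes tested, the share in which replicate 5 was highest was 20.4%, for replicate 4 it was 33.1% and for replicate 2 it was 18%. Among the 44 lower genes that edgeR also tested, replicate 4 was the lowest older mouse in 25 (56.8%, against 39.1% of all genes tested).

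**Figure D5:**
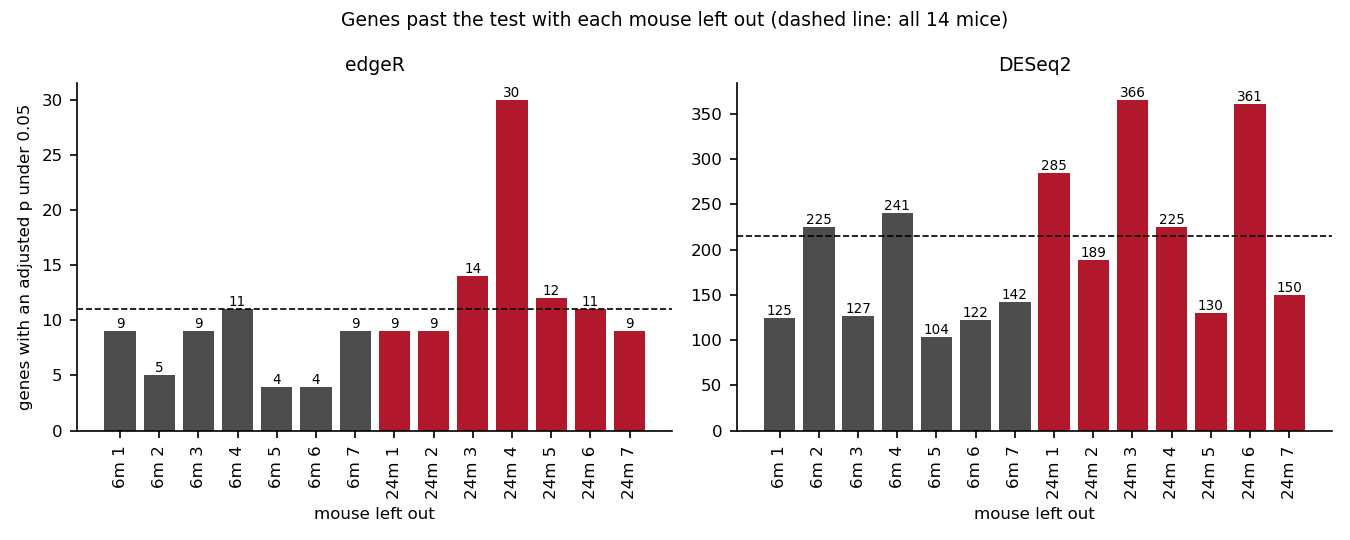
Number of genes with an adjusted p under 0.05 (vertical axis, from 0) with each of the 14 mice left out in turn (horizontal axis), by edgeR and by DESeq2, with grey bars for 6m mice, red bars for 24m mice and a dashed line at the count with all mice. The count by edgeR is 4 to 14 except for 30 without 24m replicate 4, and by DESeq2 it is 104 to 366, highest without 24m replicates 3 and 6.

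Leaving out a mouse moved the calls in a direction that depended on the mouse and on the tool. By edgeR, 30 genes passed without 24m replicate 4, and 4 to 14 without any other mouse. By DESeq2, 366 and 361 genes passed without 24m replicates 3 and 6, and 130 without replicate 5, while the loss of 6m replicate 5 gave 104. Of the 170 higher DESeq2 genes, 91 were also called without 24m replicate 5, 112 without replicate 4, 115 without replicate 7 and 129 without replicate 2, but 164, 164 and 167 without replicates 1, 3 and 6. Of the 45 lower genes, 26 were also called without replicate 7 and 27 without replicate 5. The DESeq2 fits without a mouse were added after seeing the data.

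The spread between mice was compared gene by gene. In 83.6% of the 13103 genes, the SD of log2 CPM was larger among the 7 mice at 24m than among the 7 at 6m. Without 24m replicate 4 the share was 50.7%, and without replicate 4 of both ages it was 72.3%. This share thus depended on the libraries that stood apart.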

How the data were processed

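RNA of whole TA muscles was measured in 14 libraries of the first run, 7 per age. Total RNA was extracted with Trizol per the labels (the study's methods name Tri-Reagent), enriched for poly-A RNA and made into libraries with the NEBNext Ultra II kit, and the older and younger mice of this run were prepared in parallel. The deposited values are counts of reads per gene symbol that the authors made from single-end reads. The submitters' processing notes name bcl2fastq 2.20, STAR 2.5.4b, R 3.5.1 and DESeq2 1.22.2 with the build mm10. The strand setting of the counting is not given in the sources used here, so overlapping and antisense genes are uncertain.

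Counts were tested with edgeR 4.0.16 in R 4.3.3 (filter on low counts, TMM scaling, quasi-likelihood fit of 24m against 6m, Benjamini-Hochberg adjustment over 13103 genes), with an adjusted p under 0.05 as the threshold and, for a differentially expressed gene (DEG), also a log2 fold change of 1 or more in size. The script was tested on simulated data. Levels by mouse are CPM, or log2 CPM with a prior count of 2. Single values per library were compared by a two-sided exact permutation test. Alternatives were DESeq2 1.42.0, limma 3.58.1 (voom, with and without quality weights), other scalings and filters, thinned counts, removal of the trend on exonic length and GC, the second-run libraries of the 6m mice, and each mouse left out. Python 3.11.15, scipy 1.17.1 and matplotlib 3.10.9 were used for the rest.

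The comparison, the gene lists and the tests were chosen with earlier results of these data known. Genes named in the text are those past the test, the 10 tested genes with the largest absolute log2 fold change, the 3 tested members of each list with the smallest unadjusted p, all members of lists of at most 5 genes, and 18 further genes named in the plan. Of 22537 symbols, 20202 matched the GENCODE vM21 annotation (GRCm38) by symbol, 1893 by a synonym and 442 not at all. The 28m libraries and other second-run libraries were used only where named. Some genes that this rule selects are not reported here.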

Additional observations from a re-analysis of the deposited data

Results flagged for a closer look

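In 148 groups of 7 mice (genes, list levels and library measures at each age), the mouse at either end was examined for standing apart, by its gap to the nearest other mouse divided by the range of the group, with a critical value of 0.568. Chance flags about 1 in 20 groups, or 7.4 here, and 23 were found, 11 of them 24m replicate 4 and 7 of them 6m replicate 4. The groups of an age share their mice, so an odd library can be flagged many times. The 23 flags are thus not separate events to be set against 7.4.

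In 24m replicate 4 the ratio was 0.931 for the ribosomal protein genes, 0.813 for the proteasome, 0.795 for redox defence, 0.719 for satellite cell genes, 0.701 for oxidative phosphorylation, 0.651 for polyamine genes and 0.57 for the integrated stress response, all at the high end. At the low end it was 0.711 for cholesterol synthesis, 0.644 for clock genes, 0.585 for axon guidance and 0.709 for the slope with gene length. In 6m replicate 4 it was 0.831 for redox defence, 0.76 for the proteasome, 0.677 for the ribosomal protein genes and 0.633 for oxidative phosphorylation at the high end, and 0.734 for the slope with gene length, 0.716 for the organizers of the neuromuscular junction and 0.611 for Chrnd at the low end.

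The receptor genes were flagged in another mouse. In 24m replicate 5 the ratio was 0.76 for Chrnd and 0.716 for the level of the acetylcholine receptor subunits, both at the high end. The level of the developmental sarcomere genes in 6m replicate 2 gave 0.732 at the high end, that of the collagen and matrix genes in 24m replicate 2 gave 0.568, and that of the Schwann cell markers in 6m replicate 3 gave 0.584 at the low end.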

How the results depend on the processing

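The number of genes past the test, 11 (8 of them DEGs), depended on the tool and on the libraries. It was 215 (129) with DESeq2, 266 (26) with limma-voom and quality weights, 46 (21) against the second-run libraries of the 6m mice, 19 with the trend with length and GC content removed, 5 (4) with thinned counts and 4 (2) where every library had to hold at least 10 counts. Leaving out 1 mouse gave 4 to 30 genes and 4 to 14 DEGs, and 104 to 366 genes with DESeq2. Without replicate 4 of both ages it was 121 (18), and 29 by limma-voom without 24m replicate 4, both chosen after seeing the data. The cause of these shifts was not tested. The difference in slope with gene length was -0.138 against those second-run libraries (exact permutation p = 0.00641), where age and run cannot be told apart. It was -0.119 to -0.00594 with 1 mouse left out. The difference in library total was 3083980 to 4824000 counts with 1 mouse left out.

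The 888 values of named genes under alternatives did not cover all 146 genes that the rule names, and 18 of the 888 reversed. Actc1, whose sign also turned with a mouse left out, is not in that count. With mice left out, Musk was between -0.19 and 0.77 (negative without 24m replicate 5), Myh7 between -0.021 and 0.90 (negative without 24m replicate 1), Pvalb between -0.17 and 0.44 (negative without 24m replicate 4, and -0.04 without replicate 4 of both ages), Dbp between -0.079 and 0.34 (negative without 24m replicate 2 or 3 or 6m replicate 1, 3 or 6) and Adipoq between -0.28 and 0.14 (positive without 24m replicate 1, 3, 5 or 6 or 6m replicate 4 or 6). Musk was also at -0.031 with limma-voom and quality weights, Pvalb at -0.11 with the length and GC trend removed, and Adipoq at 0.13 against the second-run libraries of the 6m mice. The median of the receptor subunits was 0.60 without 24m replicate 5. List medians rest on few mice, and those under 0.1 in size often changed sign with 1 mouse left out. Genes with few counts, such as Chrng at 6m, limit the size of a fold change more than its direction. No paired analysis was possible because the mice of both ages share no number in the labels.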
